A study of Mus musculus with 4 samples.

Results

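The genes described here are 9 channels that are opened by mechanical force or are linked to cell stretch, found in the deposited table by gene name: Piezo1 and Piezo2, Tmem63a, Tmem63b and Tmem63c, and the transient receptor potential (TRP) channels Trpv2, Trpv4, Trpm7 and Trpc1. All 9 were matched, of 54532 genes in the table. RNA was sequenced from 4 mouse libraries, 2 labelled Piezo1KO and 2 labelled WT, each described as CD4+ T cells that had infiltrated a tumour of B16, a pigmented mouse melanoma line. The series concerns Piezo1 in Th9 cells, a helper subset known for interleukin 9. Both groups share the tumour line and the described cell type, and the labels give no strain, age, Cre driver, targeted exon or number of animals. The libraries are numbered by their titles; the table's columns number the WT libraries 2 and 3.

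Piezo channels are trimers with long curved blades that flatten when the membrane is stretched, which opens a central pore to calcium and other cations. TMEM63 proteins are the mammalian relatives of the plant OSCA channels and also open under high membrane tension. TRP channels form a larger family, in which stretch is one of several stimuli and often acts indirectly. In T cells, Piezo1 has been linked to activation through calcium entry and calpain.

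Between 13789266 and 15331499 reads were assigned to genes in the Piezo1KO libraries and between 15645069 and 15892797 in the WT libraries. Values are FPKM, which adjusts fragments for the length of the gene and the size of the library. The library sizes implied by the values were not the assigned reads. They were 0.962 and 0.544 times those reads in Piezo1KO 1 and Piezo1KO 2. In WT 1 and WT 2 they were 1.26 and 1.28 times. The labelled cell type was checked by its markers. The 20 T cell markers summed to 14.5 to 21.4 FPKM in Piezo1KO and to 2.98 to 3.44 FPKM in WT. Cd3e, which every mature T cell needs for receptor signalling, gave 27 reads in Piezo1KO 1 and 0 in Piezo1KO 2, against 1 in WT 1 and 2 in WT 2. Cd4, the gene of the labelled surface marker, gave 35 and 9 reads in Piezo1KO 1 and Piezo1KO 2 (0.589 and 0.298 FPKM), against 1 and 3 reads in WT 1 and WT 2 (0.0126 and 0.0366 FPKM). Of the 20 markers, 0 and 2 were without a read in Piezo1KO 1 and Piezo1KO 2, and 8 and 4 in WT 1 and WT 2, with Cd8a at 0 in both WT libraries. The 18 melanocyte markers summed to 7767 to 7926 FPKM in Piezo1KO and to 7272 to 7299 FPKM in WT, with no marker at 0. As a share of reads outside mitochondrial genes they ran the other way, at 3.17% and 2.63% in Piezo1KO 1 and Piezo1KO 2 and 3.23% and 3.27% in WT 1 and WT 2. T cell markers took 0.00595% and 0.00346% of those reads in Piezo1KO 1 and Piezo1KO 2, and 0.00134% and 9.66e-04% in WT 1 and WT 2. In every library T cell markers thus took a far smaller share of these reads than melanocyte markers. The channel levels below are levels of the libraries as labelled, and are not read as levels of T cells. Which cells they came from was not tested. In such bulk samples, fewer cells of a type and less RNA per cell cannot be told apart.

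The other marker lists stood higher in both Piezo1KO libraries, in summed FPKM and as a share of reads outside mitochondrial genes. Macrophage and monocyte markers summed to 321 to 503 FPKM in Piezo1KO and 74.8 to 100.03 FPKM in WT. Neutrophil markers summed to 49.3 to 147 FPKM in Piezo1KO and 1.03 to 1.45 FPKM in WT, with Mpo and Ly6g at 0 in all 4 libraries. Red cell markers summed to 5125 to 8473 FPKM in Piezo1KO and 245 to 390 FPKM in WT. Endothelial markers, from cells in which Piezo1 senses blood flow, summed to 23.8 to 30.2 FPKM in Piezo1KO and 15.7 to 20.7 FPKM in WT. Fibroblast and pericyte markers summed to at least 24.5 FPKM in Piezo1KO and 9.23 to 16.5 FPKM in WT. Dendritic cell markers summed to 124 to 322 FPKM in Piezo1KO and 18.8 to 24.6 FPKM in WT, and B and plasma cell markers to 18.8 to 101 FPKM in Piezo1KO and 4.80 to 5.01 FPKM in WT. Natural killer cell markers summed to 3.70 to 6.07 FPKM in Piezo1KO and 0.246 to 0.308 FPKM in WT. Keratinocyte markers summed to 1.17 to 1.44 FPKM in Piezo1KO and 0.413 to 0.668 FPKM in WT, with 6 of the 9 at 0 in each library. Of these sums, Cdh1 held 1.27 and 0.729 FPKM in Piezo1KO 1 and Piezo1KO 2, and 0.277 and 0.312 FPKM in WT 1 and WT 2. Mitochondrial genes took 20.1% and 48.3% of assigned reads in Piezo1KO 1 and Piezo1KO 2, against 3.86% and 2.99% in WT 1 and WT 2. With FPKM scaled to reads outside mitochondrial genes, which put the median of all genes at -0.20, the log2 fold changes of Piezo1KO minus WT were -1.36 for Piezo1, -1.19 for Trpm7, -0.53 for Tmem63b, 0.30 for Trpv2 and 0.022 for Tmem63a, and 0 of the 5 passed in limma. The part of the marker differences in the channel values was not tested.

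The 9 genes fell into 3 levels. Piezo1, Tmem63b, Trpv2, Tmem63a and Trpm7 were between 2.70 and 27.8 FPKM in every library. Trpv4, Trpc1 and Piezo2 were at 0.449 FPKM or less, and Tmem63c had no read. In WT the order of the means was Piezo1, Tmem63b, Trpv2, Trpm7 and Tmem63a, and no neighbouring pair of these 5 overlapped between the 2 libraries. In Piezo1KO it was Trpv2, Tmem63b, Piezo1, Tmem63a and Trpm7. There the 2 values of Piezo1 overlapped with those of Trpv2, Tmem63b and Tmem63a.

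**Figure D1:**
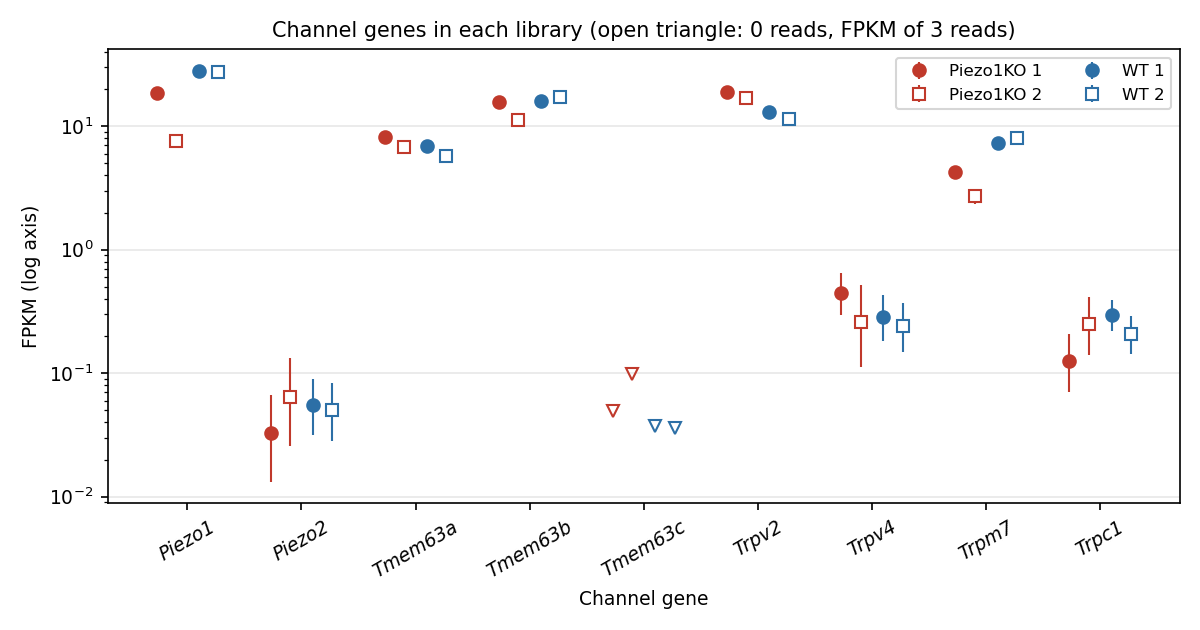
FPKM (log axis) of the 9 channel genes in each library, Piezo1KO in red left of WT in blue, with exact 95% Poisson intervals of the reads as bars, which cover counting error only; open triangles mark 0 reads, drawn at the FPKM of 3 reads. Piezo1 was at 18.7 and 7.64 FPKM in Piezo1KO and at 27.8 and 27.6 FPKM in WT, and Piezo2 was at 0.0641 FPKM or less in all 4 libraries.

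Whether the targeted gene was lower in the libraries as labelled was compared first, which does not show its level in T cells. The Piezo1 gene (ENSMUSG00000014444, GRCm38 chromosome 8, 122481698 to 122551329, minus strand, gene length 9935 bases) had 18.7 and 7.64 FPKM in Piezo1KO 1 and Piezo1KO 2, from 2735 and 569 reads. It had 27.8 and 27.6 FPKM in WT 1 and WT 2, from 5455 and 5578 reads. Both Piezo1KO values lay below both WT values, and the Piezo1KO libraries differed from each other 2.44-fold while the WT libraries differed 1.01-fold. Transcript of the gene was thus present in both libraries labelled Piezo1KO, at 67.3% and 27.6% of the WT mean. Among protein-coding genes Piezo1 stood at percentiles 89.2 and 78.7 in Piezo1KO and at 93.5 in both WT libraries.

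Means of Piezo1 were 13.2 ± 7.80 FPKM in Piezo1KO and 27.7 ± 0.179 FPKM in WT (SD, n = 2 each). The log2 fold change, on log2(FPKM + 1), was -1.14 with a 95% interval of -2.22 to -0.054. It did not pass the test across genes (limma, adjusted p = 0.166). It passed when FPKM was scaled to all assigned reads (-1.87, limma adjusted p = 6.37e-04), a scaling that put the median of all genes at -0.67; on that scale Piezo1 was at 51.0% and 11.8% of the WT mean. It also passed without Piezo1KO 1 (-1.73, limma adjusted p = 0.00157) and without Piezo1KO 2 (-0.55, limma adjusted p = 0.0299), where the lone Piezo1KO library is assumed to vary like the WT pair. Over all alternatives the adjusted p ran from 6.37e-04 to 0.657.

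A count over the whole gene does not show which exons were read. In the GENCODE annotation of GRCm38, 2441 exonic bases of Piezo1, 24.6% of its exons, are also exonic in Ctu2, a tRNA-modifying enzyme gene on the opposite strand. No source used here states whether counting used strand. Whether reads over the shared bases were counted for Piezo1, for Ctu2, for both or for neither is thus not known. Ctu2 gave 261 and 147 reads in Piezo1KO 1 and Piezo1KO 2 and 278 and 394 reads in WT 1 and WT 2.

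Piezo2 (GRCm38 chromosome 18, 63010213 to 63387183), the touch channel of sensory neurons and Merkel cells, was at the edge of detection. It had 7 and 7 reads in Piezo1KO 1 and Piezo1KO 2, or 0.0326 and 0.0641 FPKM, against 16 and 15 reads in WT 1 and WT 2, or 0.0557 and 0.0506 FPKM. The groups overlapped, and the exact 95% Poisson intervals, which cover counting error only, ran from 0.0131 to 0.132 FPKM over the Piezo1KO libraries and from 0.0283 to 0.0905 FPKM over the WT libraries. No higher level of Piezo2 was detectable in the Piezo1KO libraries at this depth.

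Of the TMEM63 genes, Tmem63b was lower in Piezo1KO and Tmem63a overlapped between groups, in the values as deposited. Tmem63b (chromosome 17, 45660171 to 45686905) had 15.8 and 11.2 FPKM in Piezo1KO 1 and Piezo1KO 2, and 16.1 and 17.4 FPKM in WT 1 and WT 2. Its groups did not overlap, but Piezo1KO 1 lay just under WT 1. Means were 13.5 ± 3.22 FPKM in Piezo1KO and 16.8 ± 0.894 FPKM in WT (SD, n = 2 each). The log2 fold change of Tmem63b was -0.31, interval -0.83 to 0.21 (limma adjusted p = 0.324). It was -0.53 with FPKM scaled to reads outside mitochondrial genes (limma adjusted p = 0.202). Without Piezo1KO 1 it was -0.54 and passed (limma adjusted p = 0.0161, with 0.0161 to 0.748 over all alternatives).

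Tmem63a (chromosome 1, 180942344 to 180975112) had 8.21 and 6.77 FPKM in Piezo1KO 1 and Piezo1KO 2, and 6.92 and 5.69 FPKM in WT 1 and WT 2. The groups overlapped, at a log2 fold change of 0.22 with an interval of -0.22 to 0.65 (limma adjusted p = 0.393), and the value was 0.022 with FPKM scaled to reads outside mitochondrial genes and turned to -0.48 with all assigned reads. Tmem63c (chromosome 12, 87021340 to 87090043) was without a single read, 0 in each of the 4 libraries; a floor of 3 reads corresponds to 0.0497 and 0.0979 FPKM in Piezo1KO and 0.0372 and 0.0361 FPKM in WT.

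Trpm7 (ENSMUSG00000027365, chromosome 2, 126791565 to 126876230, gene length 11315 bases), a channel fused to a protein kinase that carries magnesium, calcium and zinc, was the other channel with lower values in both Piezo1KO libraries by a wide gap. It had 4.27 and 2.70 FPKM in Piezo1KO 1 and Piezo1KO 2, from 713 and 229 reads, and 7.34 and 7.95 FPKM in WT 1 and WT 2, from 1637 and 1831 reads. The highest Piezo1KO value was below the lowest WT value, and Piezo1KO 2 was again the lowest. Means were 3.49 ± 1.11 FPKM in Piezo1KO and 7.65 ± 0.435 FPKM in WT (SD, n = 2 each). The log2 fold change was -0.97 with an interval of -1.52 to -0.41, which did not pass (limma adjusted p = 0.122). It passed at -1.59 with FPKM scaled to all assigned reads (limma adjusted p = 0.00867), at -1.22 without Piezo1KO 1 (limma adjusted p = 0.00438) and at -0.71 without Piezo1KO 2 (limma adjusted p = 0.0357), with 0.00438 to 0.657 over all alternatives.

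Trpv2 (ENSMUSG00000018507, chromosome 11, 62574486 to 62600515), a calcium-permeable channel abundant in macrophages and other leukocytes, had the opposite direction. It had 18.9 and 16.8 FPKM in Piezo1KO 1 and Piezo1KO 2, from 1249 and 565 reads, and 13.1 and 11.5 FPKM in WT 1 and WT 2, from 1157 and 1048 reads. Both Piezo1KO values were above both WT values. Means were 17.8 ± 1.47 FPKM in Piezo1KO and 12.3 ± 1.13 FPKM in WT (SD, n = 2 each). The log2 fold change of Trpv2 was 0.51, interval 0.12 to 0.89 (limma adjusted p = 0.141). With FPKM scaled to reads outside mitochondrial genes it was 0.30, and its interval of -0.18 to 0.78 included 0 (limma adjusted p = 0.310). On the scale of all assigned reads Trpv2 turned to -0.25 (limma adjusted p = 0.651), or 0.42 above the median of all genes on that scale. It passed without Piezo1KO 1 (0.43, limma adjusted p = 0.0420) and without Piezo1KO 2 (0.58, limma adjusted p = 0.0479), with 0.0420 to 0.657 over all alternatives. Macrophage and monocyte markers, given above, were higher in the same libraries, and their part in the Trpv2 values was not tested.

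Trpv4 and Trpc1 were detected at low levels. Trpv4 (chromosome 5, 114622152 to 114658421), an osmotically and mechanically sensitive channel of epithelia and endothelium, had 27 and 8 reads in Piezo1KO 1 and Piezo1KO 2 (0.449 and 0.262 FPKM) and 23 and 20 reads in WT 1 and WT 2 (0.286 and 0.241 FPKM). Trpc1 (chromosome 9, 95705082 to 95750375), a TRPC subunit tied to calcium entry after store release, had 15 and 15 reads in Piezo1KO (0.127 and 0.249 FPKM) and 47 and 34 reads in WT (0.297 and 0.208 FPKM). The groups overlapped for both genes. With Piezo2 and Tmem63c they were the 4 members under a mean of 1 FPKM, and were not tested.

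Of the 5 tested channels, 0 passed in limma, against 1.1% of all genes tested (122 of 11085), and 0 passed in voom on reads recovered from the FPKM, against 0.74%. With FPKM scaled to all assigned reads, Piezo1 and Trpm7 passed, against 15.4% of all genes. Without Piezo1KO 1, 4 of the 5 passed, against 52.9% of all genes, and without Piezo1KO 2, 3 passed, against 14.2%. At an unadjusted limma p under 0.05 there were 3 of the 5, Piezo1, Trpm7 and Trpv2, against 28.6% of all genes. The groups did not overlap, Piezo1KO lower, for Piezo1, Trpm7 and Tmem63b, and for 35.6% of all genes. They did not overlap, Piezo1KO higher, for Trpv2, and for 33.9% of all genes. The median log2 fold change was -0.31 over the 5 and -0.0059 over all genes. Of all tested genes, 1.55% had a log2 fold change below that of Piezo1 and 2.27% below that of Trpm7, while Tmem63b, Tmem63a and Trpv2 had 25.7%, 65.9% and 80.9% below them.

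**Figure D2:**
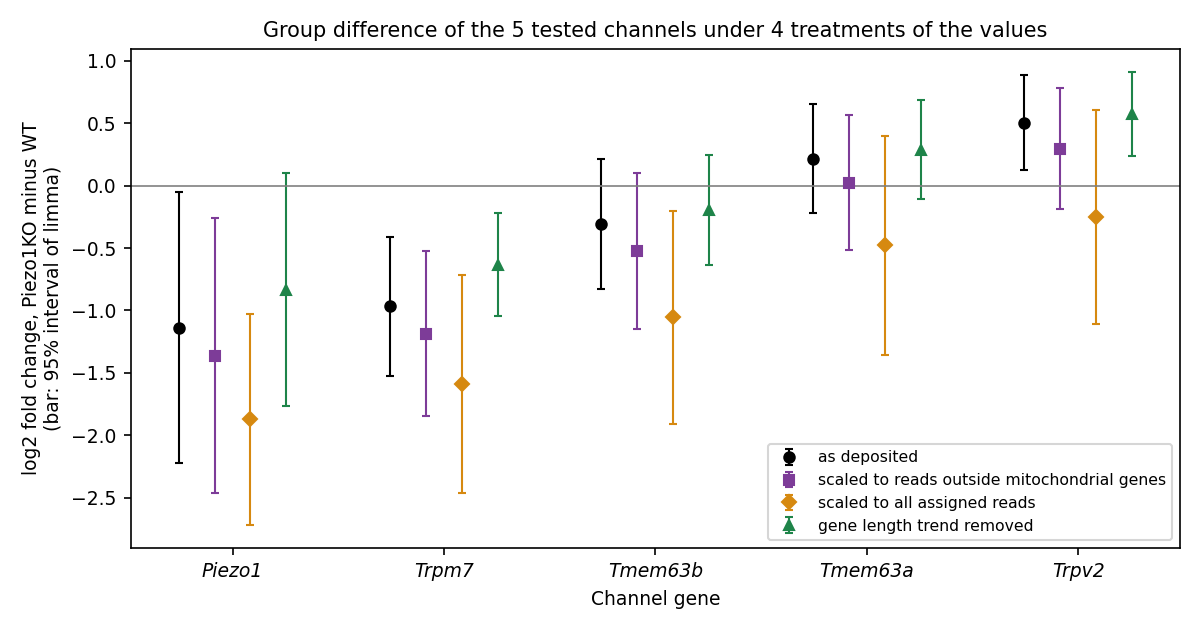
Log2 fold change (Piezo1KO minus WT) of the 5 tested channels with limma's 95% interval, as deposited and under 3 other treatments of the values, with 2 libraries a group. Piezo1 and Trpm7 were below 0 in all 4 treatments shown; Trpv2 and Tmem63a were above 0 as deposited and below 0, at -0.25 and -0.48, when scaled to all assigned reads.

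Gene length moved with the group difference. Over the 1694 tested genes longer than 8000 bases the median log2 fold change was -0.34, and over the 2391 genes of 2000 bases or less it was 0.55. Piezo1 and Trpm7 are both in the long class, and Trpv2, Tmem63a and Tmem63b lie between 4485 and 5098 bases. Over the 2457 tested genes of 4000 to 6000 bases the median was -0.11. Among the long genes, 14 (0.826%) had a lower log2 fold change than Piezo1. With the length trend removed, Piezo1 had -0.83 and Trpm7 -0.63 (limma, adjusted p 0.243 and 0.160), and Trpv2 had 0.57 (limma adjusted p = 0.154). Under that treatment 7 genes passed of all tested.

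**Figure D3:**
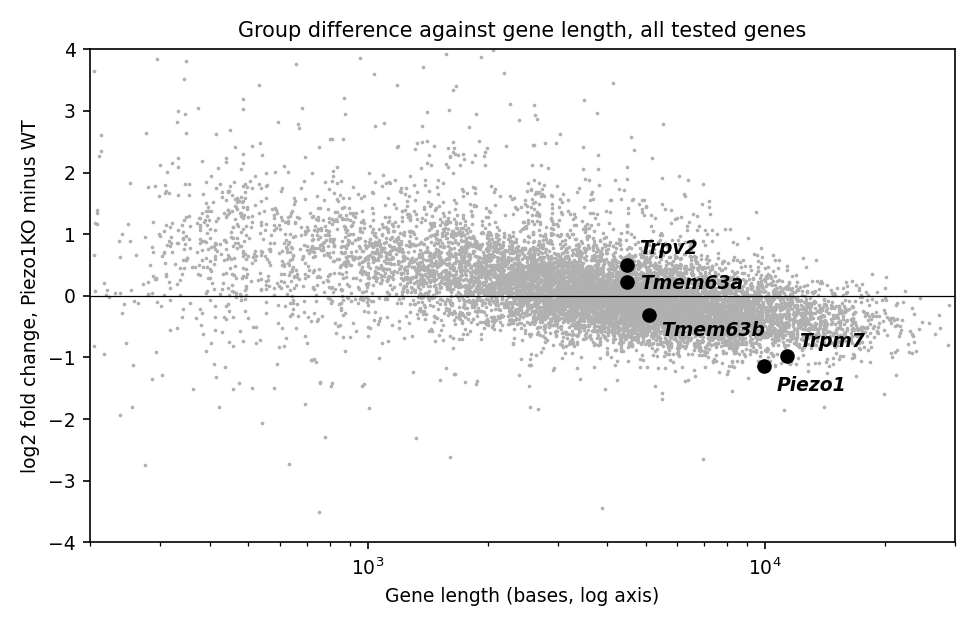
Log2 fold change (Piezo1KO minus WT) against gene length in bases (log axis) for the tested genes, in grey, with the 5 tested channels in black; 234 genes lie outside the axes. Piezo1 and Trpm7, at -1.14 and -0.97, lie below most long genes, whose median was -0.34.

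A ratio between channels within a library does not depend on how the library was scaled. Such a ratio does not remove the trend with gene length given above. Piezo1 has 9935 bases and Trpm7 11315, while Trpv2, Tmem63a and Tmem63b have 4485 to 5098. The part of gene length in the ratios was not tested. Relative to the summed FPKM of the 8 other channels, Piezo1 was at 0.391 and 0.201 in Piezo1KO 1 and Piezo1KO 2 and at 0.631 and 0.641 in WT 1 and WT 2. The WT libraries lay close together, and both Piezo1KO libraries were below them. The mean log2 ratio was -1.84 ± 0.680 in Piezo1KO and -0.65 ± 0.016 in WT (SD, n = 2 each), a difference of -1.18. An exact two-sided permutation test of 2 libraries against 2 gave p = 0.333, the smallest such a design allows. As a share of the reads of all 9 genes, Piezo1 held 42.2% (exact 95% binomial interval 41.0 to 43.4%) and 27.8% (25.8 to 29.7%) in Piezo1KO 1 and Piezo1KO 2, and 51.6% (50.7 to 52.6%) and 51.4% (50.5 to 52.3%) in WT 1 and WT 2. These intervals cover counting error only.

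The 8 other channels summed to 47.8 and 38.1 FPKM in Piezo1KO 1 and Piezo1KO 2, and to 44.1 and 43.03 FPKM in WT 1 and WT 2, so their total overlapped between the groups. Within that total, Trpv2 held 28.4% and 36.8% of the FPKM of all 9 genes in Piezo1KO and 18.2% and 16.3% in WT. Trpm7 held 6.43% and 5.91% in Piezo1KO and 10.2% and 11.3% in WT. Piezo1 held 28.1% and 16.7% in Piezo1KO and 38.7% and 39.1% in WT. Piezo1 was the most abundant of the 9 in both WT libraries and Trpv2 in Piezo1KO 2, while in Piezo1KO 1 Trpv2 at 18.9 FPKM and Piezo1 at 18.7 FPKM had overlapping Poisson intervals.

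Against single relatives, Piezo1 was lower in both Piezo1KO libraries than in both WT libraries for Trpv2, Tmem63a and Tmem63b. Piezo1 had 0.989 and 0.455 times the FPKM of Trpv2 in Piezo1KO 1 and Piezo1KO 2, and 2.13 and 2.40 times in WT 1 and WT 2, a log2 difference of -1.75. The log2 differences against Tmem63a and Tmem63b were -1.46 and -0.88. Against Trpm7 the groups overlapped: Piezo1 had 4.37 and 2.83 times the FPKM of Trpm7 in Piezo1KO 1 and Piezo1KO 2 and 3.80 and 3.47 times in WT 1 and WT 2, a log2 difference of -0.045 with SDs of 0.443 in Piezo1KO and 0.092 in WT (n = 2 each). The ratio of Trpv2 to Trpm7 was 4.42 and 6.22 in Piezo1KO and 1.78 and 1.44 in WT, a log2 difference of 1.71. Of the 10 pairs of tested channels, 9 had an exact two-sided permutation p of 0.333 (0.370 adjusted over the 10), and Piezo1 with Trpm7 had 1. In this design a p of 0.333 says only that the groups did not overlap. The share of all gene pairs without overlap was not computed. Of single genes, 35.6% did not overlap with Piezo1KO lower and 33.9% with Piezo1KO higher. The 9 pairs are thus not read as particular to these channels.

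**Figure D4:**
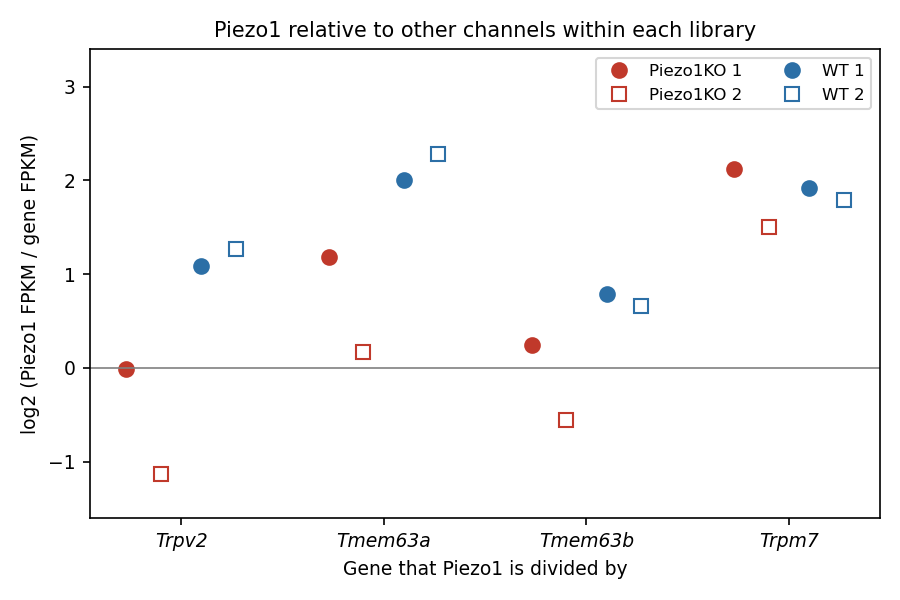
Log2 ratio of the FPKM of Piezo1 to that of each other tested channel within each library, Piezo1KO in red left of WT in blue. Both Piezo1KO libraries lie below both WT libraries for Trpv2, Tmem63a and Tmem63b, and the groups overlap for Trpm7, where Piezo1KO 1 is the highest of the 4. The ratios are not adjusted for the trend with gene length.

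The 250 bases before the RefSeq start sites (GRCm38.p6) of Piezo1 and Trpm7 are shown, as the pair of lower channels whose ratio overlapped between groups. RefSeq windows were searched for 8 of the 9 genes. No window of Piezo2 was included, so nothing is said of its motifs. The Piezo1 window is chr8:122551330-122551579 and the Trpm7 window chr2:126876262-126876511, both read on the minus strand. Capitals mark TATAAA, the core letters of a TATA box, and CACGTG, the E-box letters that MITF, MYC and other basic helix-loop-helix factors can bind. Both were searched on both strands.

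Piezo1: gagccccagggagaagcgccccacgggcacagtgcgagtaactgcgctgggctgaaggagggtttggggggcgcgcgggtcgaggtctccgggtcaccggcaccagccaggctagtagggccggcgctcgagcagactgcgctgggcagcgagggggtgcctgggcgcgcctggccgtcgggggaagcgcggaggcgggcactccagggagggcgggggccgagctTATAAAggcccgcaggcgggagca

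Trpm7: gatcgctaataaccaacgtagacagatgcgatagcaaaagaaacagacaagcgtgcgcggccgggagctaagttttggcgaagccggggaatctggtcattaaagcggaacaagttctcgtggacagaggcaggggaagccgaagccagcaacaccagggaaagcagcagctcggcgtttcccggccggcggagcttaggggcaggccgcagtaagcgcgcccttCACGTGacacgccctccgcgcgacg

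The Piezo1 window is 74.0% G or C and holds TATAAA once, with its first base 24 bases before the start, and no CACGTG. The Trpm7 window is 60.4% G or C and holds CACGTG once, with its first base 25 bases before the start, and no TATAAA. The matches do not overlap another of these motifs. The pair thus shares neither. Of 32841 RefSeq windows of this length, 12.4% hold TATAAA and 6.02% hold CACGTG, and their median content of G or C is 52.4%. A match is a description of letters, not a site shown to be used. No window of the other matched channels holds CACGTG, and TATAAA is found in 1 of them, a Tmem63c window, on both strands over shared letters.

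The genes whose profile over the 4 libraries lay closest to that of Piezo1 were Pom121, Fasn, Pdpr, Cdc42bpb and Hspg2, by Euclidean distance between centred log2(FPKM + 1) values among 9935 other protein-coding genes. Their distances were 0.056, 0.112, 0.134, 0.153 and 0.169. Pom121, a nuclear pore membrane protein, was at 65.9% and 26.7% of its WT mean in Piezo1KO 1 and Piezo1KO 2, where Piezo1 was at 67.3% and 27.6%. Fasn, the fatty acid synthase, was at 73.9% and 29.1%, and Hspg2, the matrix proteoglycan perlecan, at 57.3% and 25.2%. Cdc42bpb was at 65.9% and 32.1%. Pdpr was at 64.1% and 10.9%, further from Piezo1 in Piezo1KO 2. It had 0.451 FPKM there, a level at which the added 1 narrows differences. The ranking is a description over 4 libraries, in which 11 genes lay within a distance of 0.25.

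No relative of the 9 channels was called in the values as deposited. In the TRP family list, 5 genes other than the members were tested, and 0 passed in limma or voom (median log2 fold change -0.076). At an unadjusted limma p under 0.05 there was 1, against 28.6% of all genes. Of the 28 genes of the list, 7 had no read in any library. The most abundant was Trpm1, melastatin, a channel gene of melanocytes, with 46.5 and 44.8 FPKM in Piezo1KO 1 and Piezo1KO 2 and 42.2 and 45.9 FPKM in WT 1 and WT 2, higher than Piezo1 in every library. Pkd2, the polycystin 2 channel, had 1.94 and 1.77 FPKM in Piezo1KO and 3.29 and 3.44 FPKM in WT (log2 fold change -0.61, limma adjusted p = 0.126). Mcoln3, Pkd2l2 and Mcoln1 were at 0.32, -0.52 and -0.076 on that scale (limma, adjusted p 0.187, 0.342 and 0.744).

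Among the TMC and anoctamin genes, which are structural relatives of TMEM63, 6 were tested and 0 passed in limma or voom (median -0.23). At an unadjusted limma p under 0.05 there were 0, against 28.6% of all genes. Ano6, a calcium-activated lipid scramblase and channel, had 6.11 and 3.57 FPKM in Piezo1KO 1 and Piezo1KO 2 and 7.16 and 7.15 FPKM in WT 1 and WT 2 (log2 fold change -0.52, limma adjusted p = 0.224). Log2 fold changes were -0.32 for Ano3, 0.24 for Ano10 and -0.54 for Tmc8 (limma, adjusted p 0.229, 0.289 and 0.291).

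Of 12 other stretch-linked channels tested, 0 passed in limma or voom (median -0.25). An unadjusted limma p under 0.05 was found for 4, against 28.6% of all genes. Clic1, an intracellular chloride channel protein, had 53.7 and 60.5 FPKM in Piezo1KO and 30.5 and 27.3 FPKM in WT, or 0.96 on the log2 scale (limma adjusted p = 0.0884). Pkd1, the partner of Pkd2, had 4.44 and 2.31 FPKM in Piezo1KO and 7.97 and 7.67 FPKM in WT, or -1.06 on the log2 scale (limma adjusted p = 0.132). Tmem120a and Lrrc8b, a subunit of the volume-regulated anion channel, were at 0.72 and -0.39 (limma, adjusted p 0.138 and 0.150).

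Genes reported to bind or regulate Piezo channels numbered 14 among those tested, of which 0 passed in limma or voom (median -0.075). An unadjusted limma p under 0.05 was found for 2, against 28.6% of all genes. Atp2a2, the SERCA2 calcium pump that binds Piezo1, had 75.2 and 55.6 FPKM in Piezo1KO and 99.5 and 104 FPKM in WT, or -0.65 on the log2 scale (limma adjusted p = 0.151). Log2 fold changes were -0.42 for Magi1, -0.63 for Pip5k1c and -0.27 for Itch (limma, adjusted p 0.158, 0.224 and 0.252). Of 17 calcium effectors that can act downstream of Piezo1, 0 passed in limma or voom (median 0.077). An unadjusted limma p under 0.05 was found for 4, against 28.6% of all genes. Capns1, the small subunit of the calpain proteases, had 125 and 135 FPKM in Piezo1KO and 79.8 and 72.3 FPKM in WT, or 0.76 on the log2 scale (limma adjusted p = 0.122). Among ATP-gated channels, P2rx7 was at -0.53 and P2rx4 at 0.47 (limma, adjusted p 0.130 and 0.141), and Camk2g, a calmodulin-dependent kinase, was at -0.56 (limma adjusted p = 0.149). Scaling to all assigned reads, which moved the median of all genes to -0.67, put Capns1 at -0.040, Tmem120a at -0.060, P2rx4 at -0.25, Mcoln3 at -0.33, Ano10 at -0.50 and Clic1 at 0.16, each still above that median. On that scale 7 of the 54 genes tested in these lists passed in limma, all lower in Piezo1KO, or 13.0% against 15.4% of all genes, so their share was near the background.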

How the data were processed

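The authors deposited 1 table of FPKM values for 4 libraries. Per the submitters' processing notes, the tools were fastp 0.19.7 for cleaning and featureCounts 1.5.0-p3 for counting, and the build was mm10 (GRCm38). Not given in the sources used here: the aligner, the annotation release, the strand setting and the FPKM formula. Reads per gene were recovered from FPKM and gene length, with 100% of values above 0 whole within 0.05 reads. Their scale implies library sizes of 0.962 and 0.544 times the assigned reads in Piezo1KO 1 and Piezo1KO 2, and of 1.26 and 1.28 times in WT 1 and WT 2. Of 54495 genes also in GENCODE vM21, 53548 had the same coordinates, all 9 members among them.

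The difference of Piezo1KO minus WT in log2(FPKM + 1) was tested by limma 3.58.1 (R 4.3.3, eBayes with trend, no block) over the 11085 genes whose mean reached 1 FPKM. Two-sided p-values were adjusted over all of them (Benjamini-Hochberg, 0.05). This scale understates changes of low genes. Whether replicate libraries are separate animals is not labelled, so p-values measure only the spread between libraries, which may be technical. Limma had 2 residual and 2.59 prior degrees of freedom. Alternatives were a replicate block, another pseudocount, other filters, 2 other scalings, quantile normalisation, removal of the length trend, other eBayes settings, protein-coding genes alone, voom on recovered reads and each library left out. The members and gene lists were chosen with earlier results of these data known. Genes named beside the members are the 4 with the smallest p in each list and the 5 profiles nearest to Piezo1. Trpm1 was added for its level, Ctu2 for its overlap with Piezo1, and Cd3e and Cd4 as checks. Cd8a, Mpo and Ly6g were added as markers at 0, and Cdh1 for its part of the keratinocyte sum.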

Additional observations from a re-analysis of the deposited data

How the results depend on the processing

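Piezo1 stayed below 0 in all 16 alternatives tried, but many of these could not have turned its sign. The other filters, the protein-coding genes, the replicate block and the other eBayes settings kept its value of -1.14 by construction. Leaving out 1 library could not turn it, as both Piezo1KO values lay below both WT values. The log2 fold change of Piezo1 passed the test at -1.87 with FPKM scaled to all assigned reads. Leaving out 1 library gave -1.73 to -0.55. The difference of Piezo1 relative to the 8 other channels kept its sign in all 9 alternatives. It ran from -1.66 to -0.70 when 1 library was left out, where again the sign could not turn. The count of members that passed was 2 on the scale of all assigned reads and 0 to 4 without 1 library; it was 0 in the other alternatives. With that scaling Tmem63a and Trpv2 turned to -0.48 and -0.25, by construction with the median of all genes at -0.67, and 16.2% of calls were higher against 66.4% as deposited. The count of all genes that passed, 122 as deposited, was 264 with the replicate block, 1 without a filter, 68 at a mean of at least 5 FPKM, 1707 with FPKM scaled to all assigned reads, 192 after quantile normalisation, 7 with the length trend removed, and 0 to 5859 without 1 library. It was 0 without WT 1 and without WT 2 in limma, with 723 and 616 genes at an unadjusted p under 0.05, 5859 without Piezo1KO 1 and 1579 without Piezo1KO 2. The higher share of calls was 56.2% with FPKM scaled to reads outside mitochondrial genes, 85.3% at a mean of at least 5 FPKM, 87.3% among protein-coding genes, 87.8% in voom, and 85.7% after the length trend was removed. The causes were not tested. With the replicate block Piezo1 kept -1.14 (limma adjusted p = 0.117) and no member passed. Deviations of same-numbered libraries were not correlated (r = -0.033 across genes). With 2 libraries a group, this cannot decide whether same-numbered libraries form pairs. As deposited, none of the 5 tested channels passed. With 2 libraries a group, the adjusted test could not tell their differences from the spread. Piezo2, Trpv4 and Trpc1 rest on 7 to 47 reads a library.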
